A study of Mus musculus with 8 samples.

Results

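The lipogenic genes of mouse heart, 10 in number, are described here in 4 libraries from db/db mice given DIZE and 4 libraries from db/db mice given vehicle. The genes were taken by name, with earlier results of these data known: Thrsp, Fasn, Acaca, Acly, Scd1, Scd2, Elovl6, Me1, Srebf1 and Gpam. All 10 were found among the 55487 genes counted, and all 10 were among the 13648 genes with enough reads to be tested. Both groups are of the db/db strain, in which the leptin receptor is mutated, so the comparison is of DIZE, studied here against diabetic heart disease, with vehicle in diabetic mice and holds no lean control. The sources used here state no dose, duration or age. Nothing in the labels says that the libraries of a group came from separate mice, so p-values measure the spread between libraries, which may be partly technical.

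Lipogenesis turns citrate from the mitochondria into fat. ATP citrate lyase (Acly) cuts citrate to acetyl-CoA, acetyl-CoA carboxylase (Acaca) makes malonyl-CoA, and fatty acid synthase (Fasn) builds palmitate from it with NADPH, part of which malic enzyme (Me1) supplies. Elovl6 lengthens palmitate, the stearoyl-CoA desaturases (Scd1, Scd2) add a double bond, and Gpam starts the joining of fatty acids to glycerol. Srebf1 encodes SREBP-1, the transcription factor that drives many of these genes, and Thrsp (Spot 14) is a small protein induced by thyroid hormone and carbohydrate in liver and fat. Heart muscle mostly burns fatty acids rather than making them, and its malonyl-CoA is best known as a brake on the entry of fatty acids into mitochondria.

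The promoters of Thrsp, Fasn, Elovl6 and Srebf1 are shown first, since the accounts of hormone response, liver transcripts and SREBP-1 below turn on these 4 genes. Each is the 250 bases before a RefSeq start site on build GRCm38.p6, read 5′ to 3′ on the strand of the gene, with CCAAT and its complement ATTGG in capitals.
Thrsp, minus strand of chr7:97417551-97417800: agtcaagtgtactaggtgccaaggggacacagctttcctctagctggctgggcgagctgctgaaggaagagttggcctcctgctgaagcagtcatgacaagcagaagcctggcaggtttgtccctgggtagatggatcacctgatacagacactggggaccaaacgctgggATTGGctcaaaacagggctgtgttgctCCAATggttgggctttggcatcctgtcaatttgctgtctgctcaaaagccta
Fasn, minus strand of chr11:120824548-120824797: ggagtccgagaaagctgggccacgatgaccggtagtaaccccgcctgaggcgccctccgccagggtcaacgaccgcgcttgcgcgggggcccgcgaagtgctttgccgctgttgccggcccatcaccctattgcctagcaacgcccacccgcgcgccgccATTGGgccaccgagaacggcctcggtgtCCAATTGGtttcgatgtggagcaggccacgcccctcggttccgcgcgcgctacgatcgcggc
Elovl6, plus strand of chr3:129532136-129532385: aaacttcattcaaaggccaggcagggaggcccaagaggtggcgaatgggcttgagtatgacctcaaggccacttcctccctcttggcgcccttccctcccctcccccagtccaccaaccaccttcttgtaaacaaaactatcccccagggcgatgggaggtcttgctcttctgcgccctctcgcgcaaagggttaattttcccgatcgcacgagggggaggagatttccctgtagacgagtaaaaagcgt
Srebf1, minus strand of chr11:60210472-60210721, before the most downstream of its 3 starts: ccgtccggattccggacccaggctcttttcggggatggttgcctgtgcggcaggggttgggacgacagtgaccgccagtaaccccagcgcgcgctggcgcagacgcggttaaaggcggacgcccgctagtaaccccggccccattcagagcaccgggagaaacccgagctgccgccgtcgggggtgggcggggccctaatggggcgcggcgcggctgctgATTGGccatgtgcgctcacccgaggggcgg
The Thrsp stretch holds ATTGG and CCAAT, the Fasn stretch holds overlapping and separate copies, the Srebf1 stretch holds 1 ATTGG, and the Elovl6 stretch holds none. The table of promoters had 12 entries for 8 of the 10 genes, and 6 of the 12 hold the motif on either strand, against 33.8% of 32851 mouse promoters. A sterol response element written TCACNCCAC, an E-box written CACGTG and a direct repeat of GGTCA with any 5 bases between the copies, as bound by thyroid hormone and LXR receptors, were searched on both strands, and 0 of the 12 hold any of them. Among all promoters the shares were 1.05%, 6.02% and 0.0639% in that order. With shares this low, 0 of 12 does not set these promoters apart, and bases farther from the starts were not searched. A match is a run of letters and not a bound site, and gene counts cannot be divided among the starts of Srebf1.

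The 8 libraries held 7447664 to 10161623 counts. Ventricular marker genes were abundant in every library, with a summed level of 43780 to 48960 CPM, counts scaled to the size of each library, in DIZE libraries and 28570 to 47570 CPM in vehicle libraries. A pair of vehicle libraries stood apart from the rest. Vehicle 2 held 10508 reads of the liver gene Alb, against 0 to 18 reads in DIZE libraries and 0 to 65 reads in the other vehicle libraries. It was the highest library for 10 of 10 hepatocyte markers, whose sum reached 2090 CPM there, against 9.50 to 22.8 CPM in DIZE libraries and 7.78 to 44.2 CPM in the other vehicle libraries. Vehicle 1 differed most from the other libraries by a chi-square comparison over genes, at 25.1 to 52.5 per degree of freedom. Where leaving out either library moved the value of a named gene by over 1.5 times, the value without it is given, or for changes near 0 the range over all libraries left out. In whole heart tissue, fewer cells of a type and less RNA per cell cannot be told apart.

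Per unit of transcript length, Me1 and Gpam were the most abundant of the 10 genes and Elovl6 the least. In TPM, which scale counts by library size and exon length (mean ± SD, n = 4 each), Me1 stood at 215 ± 11.8 in DIZE libraries and 182 ± 21.8 in vehicle libraries. Gpam stood at 151 ± 9.13 TPM in DIZE libraries, under Me1. In vehicle libraries Gpam stood at 190 ± 26.4 TPM, above the mean of Me1 there but within 1 SD of it. Acly, Srebf1 and Thrsp formed a middle tier. Acly was at 34.99 ± 1.18 TPM in DIZE libraries and 36.9 ± 1.61 TPM in vehicle libraries, and Srebf1 at 30.3 ± 5.09 TPM in DIZE libraries and 18.1 ± 4.86 TPM in vehicle libraries. Thrsp was at 28.7 ± 4.77 TPM in DIZE libraries, which is within 1 SD of Srebf1, and at 48.7 ± 11.7 TPM in vehicle libraries, above it. Scd2 stood at 12.3 ± 1.67 TPM in DIZE libraries and 12.8 ± 1.67 TPM in vehicle libraries, and Fasn at 6.44 ± 0.548 TPM in DIZE libraries and 6.86 ± 3.82 TPM in vehicle libraries. Acaca was at 1.55 ± 0.145 TPM in DIZE libraries and 1.97 ± 0.357 TPM in vehicle libraries, and Elovl6 at 0.696 ± 0.405 TPM in DIZE libraries and 1.65 ± 1.32 TPM in vehicle libraries. Scd1 had no fixed place in this order, at 11.7 ± 1.63 TPM in DIZE libraries and 50.6 ± 69.8 TPM in vehicle libraries.

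**Figure D1:**
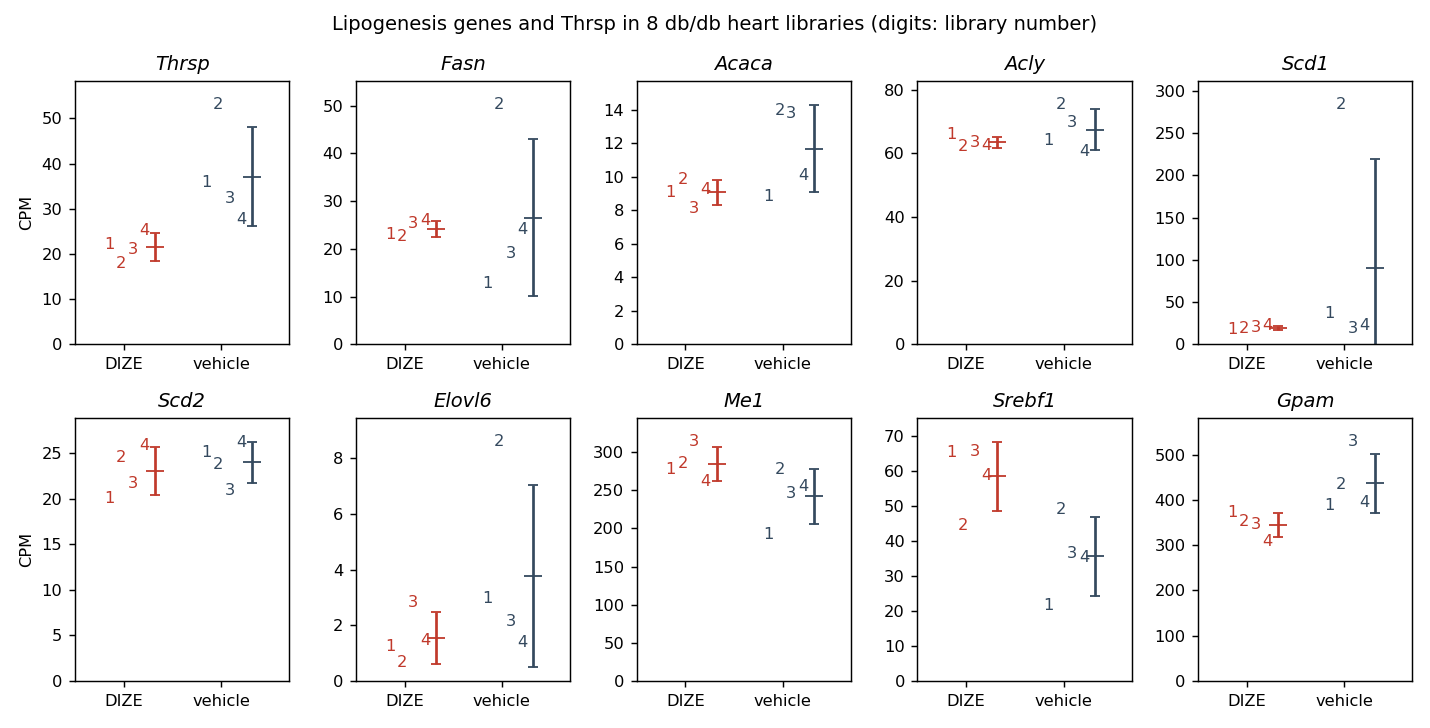
Level of each of the 10 lipogenesis genes in CPM, with the 4 DIZE libraries left of the 4 vehicle libraries; each digit is a library, and the bar is the group mean with its SD, cut at 0 where it would pass below. Thrsp and Gpam have every DIZE library under every vehicle library, and vehicle 2 stands far above the rest for Scd1 at 283 CPM.

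None of the 10 genes passed edgeR's quasi-likelihood test at an adjusted p of 0.05 over all tested genes. Across the whole table that test called 5 genes, or 0.0366%, of which 0.022% were higher and 0.0147% lower in DIZE libraries. Without vehicle 2 it called 1.73% of the genes then tested, again with none of the 10. At an unadjusted p under 0.05, Srebf1 was higher in DIZE libraries, against a background of 9.11% of tested genes, and Thrsp and Gpam were lower, against a background of 10.3%. The 3 of 10 genes at that level stand beside 19.4% of tested genes in either direction, and with 10 genes that share is close to the background. The groups did not overlap for Thrsp and Gpam, both lower in DIZE libraries, where 5.26% of tested genes are lower without overlap, 7.17% are higher and 12.4% are separated in either direction. By DESeq2, which called 4.44% of tested genes, Thrsp passed with an adjusted p of 0.0165 and Srebf1 with 0.0499. With no filter on low counts edgeR called 1.37% of genes, Thrsp among them (adjusted p = 0.0192), and in the libraries whose titles lack the letters db it called 9.57%, Srebf1 among them. Fitted log2 fold changes were positive for 2 of the 10 genes and negative for 8. Over all tested genes 6577 were positive and 7071 negative, which is also the background for the signs counted in lists below. The median of the 10 was -0.23, against -0.01 over all tested genes. Without vehicle 2 that median was -0.16 against -0.01.

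Thrsp was lower in DIZE hearts, with no overlap between the groups, at an adjusted p that missed the threshold. Its reads (ENSMUSG00000035686, minus strand of chr7:97412938-97417730, build mm10) numbered 180, 135, 208 and 258 in DIZE libraries 1 to 4, against 348, 413, 240 and 282 in vehicle libraries 1 to 4. In CPM these are 21.98, 17.8, 21.02 and 25.2 in DIZE libraries, against 35.7, 53.0, 32.2 and 27.7 in vehicle libraries. Every DIZE library lay under every vehicle library, though DIZE 4 and vehicle 4 were close. The mean was 21.5 ± 3.04 CPM in DIZE libraries and 37.1 ± 11.1 CPM in vehicle libraries (SD, n = 4 each). The log2 fold change was -0.78 ± 0.20 (SE), or 1.72-fold lower in DIZE libraries, with an unadjusted p of 0.00198 and an adjusted p of 0.101 by edgeR. Without vehicle 2 the log2 fold change was -0.56 (edgeR adjusted p = 0.0773). The sample titles come in 2 forms, with and without the letters db, each with 2 libraries a group. Within the titles holding db the log2 fold change of Thrsp was -1.15, and within the others it was -0.37. Fat is a tissue in which Thrsp is abundant, and the values of its markers follow. Of 13 adipocyte markers 5 had enough reads to be tested, of which 2 were fitted higher and 3 lower. At an unadjusted p under 0.05, Lipe was higher, where 9.11% of tested genes are, and Adig and Car3 were lower, where 10.3% are. Adig had 5, 4, 11 and 7 reads in DIZE libraries, against 11, 12, 16 and 12 reads in vehicle libraries. Adipoq, the gene of the fat cell hormone adiponectin, had 0, 0, 0 and 6 reads in DIZE libraries, against 18, 12, 1 and 6 reads in vehicle libraries. Plin1, which coats fat droplets in those cells, had 3, 0, 0 and 6 reads in DIZE libraries, against 9, 11, 0 and 10 reads in vehicle libraries. Lipe, the hormone-sensitive lipase, which heart muscle also uses, had 78.8 to 115 CPM in DIZE libraries and 54.6 to 69.4 CPM in vehicle libraries, without overlap (log2 fold change 0.59, edgeR adjusted p = 0.0919). The 13 adipocyte markers summed to 601 to 920 CPM in DIZE libraries and 602 to 1075 CPM in vehicle libraries. Most of that sum was Fabp4, a fatty acid binding protein also listed as an endothelial marker, at 499 to 779 CPM in DIZE libraries and 512 to 967 CPM in vehicle libraries. The part of fat tissue or of liver RNA in the Thrsp difference was not tested.

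Srebf1 was higher in DIZE hearts, with groups that overlapped only through vehicle 2. Its reads (ENSMUSG00000020538, minus strand of chr11:60199089-60222581) numbered 536, 339, 649 and 604 in DIZE libraries, against 210, 382, 273 and 361 in vehicle libraries. In CPM these are 65.4, 44.6, 65.6 and 58.9 in DIZE libraries, against 21.6, 49.0, 36.6 and 35.4 in vehicle libraries. DIZE 2 was the lowest treated library and lay under vehicle 2 alone. The mean was 58.6 ± 9.86 CPM in DIZE libraries and 35.6 ± 11.2 CPM in vehicle libraries. The log2 fold change was 0.72 ± 0.22, or 1.65-fold, with an unadjusted p of 0.00688 and an adjusted p of 0.138 by edgeR. Without vehicle 2 it was 0.91 ± 0.21 with no overlap (edgeR adjusted p = 0.0551). It was 0.65 within the titles holding db and 0.79 within the others, where it passed (edgeR adjusted p = 0.0071). After the trend of each library on GC content and length was removed it was 0.51 (edgeR adjusted p = 0.14), the GC content of the Srebf1 transcript being 58.4%. Srebf1 shares 109 exonic bases (chr11:60199089-60199197) with Rai1 on the opposite strand, and whether reads were counted by strand is not given in the sources used here. Rai1 was at 58.0 ± 6.86 CPM in DIZE libraries and 39.8 ± 10.2 CPM in vehicle libraries, with no overlap and a log2 fold change of 0.55 ± 0.19 (edgeR adjusted p = 0.164).

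Of the partners of SREBP-1 the lowest unadjusted p was that of Scap. Scap, which escorts SREBP to the Golgi for cleavage, averaged 43.1 ± 2.24 CPM in DIZE libraries and 30.1 ± 5.39 CPM in vehicle libraries, a log2 fold change of 0.52 ± 0.14 (edgeR adjusted p = 0.116). With the GC and length trend removed it was 0.28 (edgeR adjusted p = 0.17). Srebf2, the sterol-regulating relative, averaged 43.6 ± 8.28 CPM in DIZE libraries and 35.03 ± 10.3 CPM in vehicle libraries (edgeR adjusted p = 0.411). Its log2 fold change was 0.32, or 0.18 without vehicle 1, 0.51 without vehicle 3 and 0.14 with the GC and length trend removed. Insig1, which holds SREBP back in the endoplasmic reticulum and is itself an SREBP target, averaged 23.7 ± 10.95 CPM in DIZE libraries and 23.0 ± 5.52 CPM in vehicle libraries. Mlxipl, the glucose-sensing factor ChREBP, averaged 33.2 ± 6.20 CPM in DIZE libraries and 31.6 ± 13.7 CPM in vehicle libraries. Mid1ip1, the paralog of Thrsp and an activator of acetyl-CoA carboxylase, averaged 67.9 ± 20.6 CPM in DIZE libraries and 72.4 ± 13.8 CPM in vehicle libraries. The log2 fold changes of Insig1, Mlxipl and Mid1ip1 were 0.05, 0.07 and -0.09, and each changes sign under other settings. Of 15 tested genes of fatty acid synthesis and its regulators outside the 10, 11 were fitted higher and 4 lower, 0 passed the test, and their median log2 fold change was 0.05 against -0.01 over all tested genes.

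**Figure D2:**
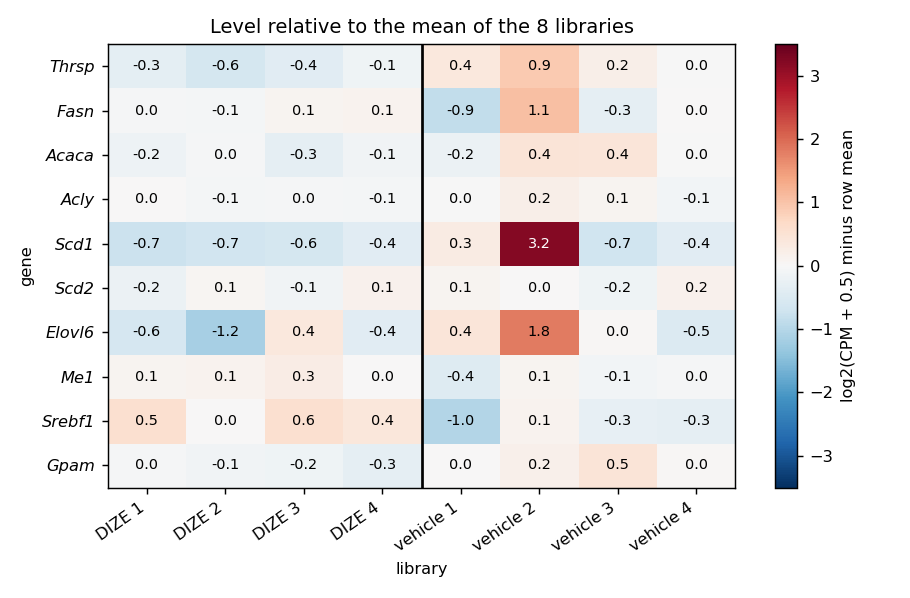
Level of each lipogenesis gene in every library as log2(CPM + 0.5) minus its mean over the 8 libraries, with DIZE libraries left of vehicle libraries. Srebf1 is well above its mean in DIZE 1, DIZE 3 and DIZE 4, and Scd1, Elovl6 and Fasn share their highest value in vehicle 2.

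Of the enzymes that feed carbon and NADPH into the pathway, Acly hardly varied. It (ENSMUSG00000020917, minus strand of chr11:100476353-100528000) had 65.8, 62.0, 63.5 and 62.5 CPM in DIZE libraries, against 64.1, 75.2, 69.7 and 60.6 CPM in vehicle libraries. The groups overlapped, and the log2 fold change was -0.09 ± 0.11 (edgeR adjusted p = 0.679), with -0.03 without vehicle 2 and -0.16 with the GC and length trend removed. Me1 (ENSMUSG00000032418, minus strand of chr9:86581371-86695953) had 278, 285, 314 and 261 CPM in DIZE libraries, against 192, 277, 245 and 255 CPM in vehicle libraries. DIZE 4 lay under vehicle 2, and without vehicle 2 every DIZE library was above every vehicle library. The mean was 284 ± 21.96 CPM in DIZE libraries and 242 ± 36.1 CPM in vehicle libraries, a log2 fold change of 0.23 ± 0.13 (edgeR adjusted p = 0.339). It was 0.30 without vehicle 2 and 0.13 without vehicle 1, the lowest library. Of 8 other genes of NADPH supply, 5 were fitted higher and 3 lower, and 0 passed. Most of the 8 are cytosolic, whereas Nnt lies in the mitochondrial inner membrane and H6pd in the endoplasmic reticulum. H6pd, a hexose-6-phosphate dehydrogenase, averaged 72.9 ± 7.79 CPM in DIZE libraries and 57.9 ± 5.74 CPM in vehicle libraries (log2 fold change 0.33 ± 0.12, edgeR adjusted p = 0.177), and its log2 fold change was 0.13 with the GC and length trend removed.

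Acaca was a minor acetyl-CoA carboxylase gene in these hearts. It (ENSMUSG00000020532, plus strand of chr11:84129672-84401651) had 74, 75, 80 and 95 reads in DIZE libraries, against 86, 109, 103 and 103 reads in vehicle libraries. In CPM these are 9.03, 9.87, 8.08 and 9.26 in DIZE libraries, against 8.83, 13.98, 13.8 and 10.1 in vehicle libraries. The groups overlapped through vehicle 1, with a log2 fold change of -0.36 ± 0.18 (edgeR adjusted p = 0.296), which was -0.19 once the GC and length trend was removed. Acacb, the paralog whose product sits at the mitochondrial membrane, had 687, 525, 547 and 585 CPM in DIZE libraries, against 217, 540, 496 and 537 CPM in vehicle libraries. Vehicle 1 was far under the other 7 libraries, and the log2 fold change of Acacb was 0.39 ± 0.24 with it (edgeR adjusted p = 0.401) and 0.16 without it. Acaca made up 1.54% ± 0.230 of the reads of the pair in DIZE libraries (1.30 to 1.84%) and 2.75% ± 0.862 in vehicle libraries (1.85 to 3.92%, SD, n = 4 each). The groups did not overlap, though DIZE 2 and vehicle 4 almost met. The difference of -1.21 percentage points had an exact two-sided permutation p of 0.0286, the smallest that 70 splits allow, and an adjusted p of 0.0571 over the 2 shares examined. It was -0.82 percentage points without vehicle 1.

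Fasn did not separate the groups, and the sign of its fitted change hung on vehicle 2. Its reads (ENSMUSG00000025153, minus strand of chr11:120805846-120824547) numbered 188, 172, 250 and 265 in DIZE libraries, against 125, 391, 141 and 246 in vehicle libraries. In CPM these are 23.0, 22.6, 25.3 and 25.8 in DIZE libraries, against 12.8, 50.2, 18.9 and 24.1 in vehicle libraries. The DIZE libraries lay close together, while vehicle libraries ran both under and above them. The mean was 24.2 ± 1.62 CPM in DIZE libraries and 26.5 ± 16.4 CPM in vehicle libraries, a log2 fold change of -0.13 ± 0.34 (edgeR adjusted p = 0.867). Without vehicle 2 the vehicle mean was 18.6 ± 5.66 CPM and the log2 fold change 0.38 ± 0.20 (edgeR adjusted p = 0.283). It was -0.36 without vehicle 1 and -0.25 without vehicle 3.

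The desaturases Scd1 and Scd2 differed in how they varied among libraries. Scd2 (ENSMUSG00000025203, plus strand of chr19:44293674-44306864) was steady, with 20.02, 24.5, 21.6 and 25.8 CPM in DIZE libraries, against 25.0, 23.7, 20.9 and 26.2 CPM in vehicle libraries. Its log2 fold change was -0.06 ± 0.13 (edgeR adjusted p = 0.826), and it lay between -0.13 and 0.01 over all alternatives. Scd1 (ENSMUSG00000037071, minus strand of chr19:44394455-44407879) had 145, 141, 191 and 233 reads in DIZE libraries, against 359, 2209, 135 and 230 reads in vehicle libraries. In CPM these are 17.7, 18.6, 19.3 and 22.7 in DIZE libraries, against 36.8, 283, 18.1 and 22.6 in vehicle libraries. Vehicle 2 was 7.69 times the next vehicle library, vehicle 1 was second, and vehicle 3 and vehicle 4 lay among the DIZE libraries. The log2 fold change of Scd1 was -2.20 ± 0.98 with vehicle 2 (edgeR adjusted p = 0.281), -0.40 ± 0.22 without it (edgeR adjusted p = 0.31) and 0.04 within the titles without db. Scd1 made up 46.9, 43.1, 47.2 and 46.8% of the reads of the pair in DIZE libraries, against 59.5, 92.3, 46.4 and 46.3% in vehicle libraries. The Wilson 95% interval, which covers counting error only, was 91.1 to 93.3% for vehicle 2 and 55.6 to 63.4% for vehicle 1. The mean share was 46.0% ± 1.93 in DIZE libraries and 61.1% ± 21.7 in vehicle libraries, a difference of -15.1 percentage points with an exact two-sided permutation p of 0.286. Without vehicle 2 the difference was -4.74 percentage points.

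**Figure D3:**
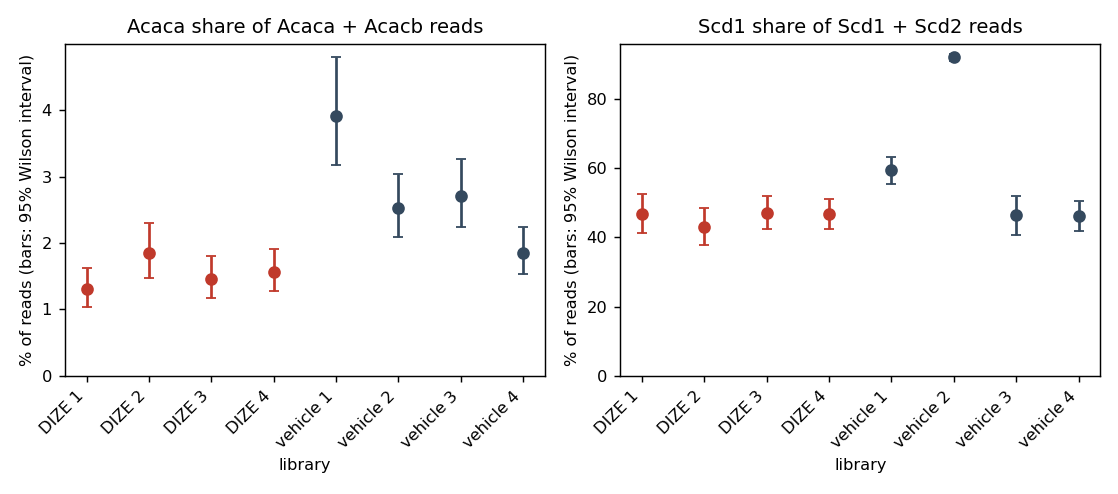
Share of Acaca in the reads of Acaca plus Acacb, and of Scd1 in the reads of Scd1 plus Scd2, in percent, for each DIZE library and then each vehicle library, with Wilson 95% intervals. DIZE libraries lie at 1.30 to 1.84% for Acaca, under the vehicle libraries, and the Scd1 share reaches 92.3% in vehicle 2.

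Scd4, in the same chromosome 19 cluster (chr19:44333092-44346743) and the desaturase known mainly from heart, was higher in every DIZE library than in any vehicle library. It had 84.6, 153, 85.8 and 93.8 CPM in DIZE libraries, against 35.5, 49.1, 52.8 and 54.0 CPM in vehicle libraries. Its log2 fold change was 1.12 ± 0.21, or 2.18-fold, with an adjusted p of 0.0739 by edgeR and 2.5e-04 by DESeq2, and without vehicle 2 the edgeR adjusted p was 0.049. Without DIZE 2, its highest library, the log2 fold change was 0.88 (edgeR adjusted p = 0.124). Leaving out each of the other DIZE libraries gave edgeR adjusted p of 0.132 to 0.216. Scd3 had 0 to 5 reads in DIZE libraries and 2 to 5 reads in vehicle libraries and was not tested. The Scd genes resemble each other in sequence, so the assignment of reads among them is uncertain. In TPM, Scd4 stood at 80.5 ± 24.6 in DIZE libraries and 36.8 ± 6.55 in vehicle libraries, above the levels of Scd1 and Scd2 in DIZE libraries.

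Elovl6 had the fewest reads of the 10 genes. It (ENSMUSG00000041220, plus strand of chr3:129532355-129638495) had 10, 5, 28 and 15 reads in DIZE libraries, against 29, 67, 16 and 14 reads in vehicle libraries. In CPM these are 1.22, 0.658, 2.83 and 1.46 in DIZE libraries, against 2.98, 8.59, 2.15 and 1.37 in vehicle libraries. The groups overlapped, and vehicle 2 was 2.89 times the next vehicle library. The log2 fold change was -1.23 ± 0.58 with vehicle 2 (edgeR adjusted p = 0.279) and -0.45 ± 0.45 without it. Of 15 tested genes of elongation and desaturation outside the 10, Scd4 included, 6 were fitted higher and 9 lower, with 0 passing. Elovl5, the elongase of polyunsaturated fatty acids, averaged 36.6 ± 1.43 CPM in DIZE libraries and 43.5 ± 5.48 CPM in vehicle libraries, without overlap (log2 fold change -0.25 ± 0.12, edgeR adjusted p = 0.274). Vehicle 2 was its highest library at 51.4 CPM, and without it the log2 fold change was -0.16. Cyb5a, the cytochrome b5 that hands electrons to desaturases, averaged 44.9 ± 1.496 CPM in DIZE libraries and 71.5 ± 18.9 CPM in vehicle libraries (log2 fold change -0.67 ± 0.17, edgeR adjusted p = 0.102).

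Gpam, which makes lysophosphatidic acid at the mitochondrial surface, was lower in every DIZE library than in any vehicle library. It (ENSMUSG00000024978, minus strand of chr19:55067268-55127238) had 373, 353, 347 and 309 CPM in DIZE libraries, against 388, 435, 529 and 395 CPM in vehicle libraries. DIZE 1 and vehicle 1 were close to each other. The mean was 345 ± 26.9 CPM in DIZE libraries and 437 ± 65.0 CPM in vehicle libraries, with a log2 fold change of -0.34 ± 0.12, or 1.26-fold lower in DIZE libraries, an unadjusted p of 0.0194 and an adjusted p of 0.182 by edgeR. It was -0.17 within the titles holding db and -0.50 within the others. Of the 13 other tested genes of glycerolipid assembly, 10 were fitted higher and 3 lower, and 0 passed, with a median of 0.16. At an unadjusted p under 0.05, 4 of the 13 were higher, where 9.11% of tested genes are, and 1 was lower, where 10.3% are. Agpat3, an acyltransferase of the next step, averaged 452 ± 51.2 CPM in DIZE libraries and 309 ± 52.2 CPM in vehicle libraries (log2 fold change 0.55 ± 0.14, edgeR adjusted p = 0.106). Gpd1, which makes glycerol-3-phosphate for Gpam, averaged 119 ± 24.0 CPM in DIZE libraries and 72.0 ± 18.1 CPM in vehicle libraries (log2 fold change 0.72 ± 0.20, edgeR adjusted p = 0.116). Dgat1, which makes triglyceride, averaged 39.6 ± 2.61 CPM in DIZE libraries and 29.2 ± 5.40 CPM in vehicle libraries (log2 fold change 0.44 ± 0.14, edgeR adjusted p = 0.142). Lpin2, a phosphatidate phosphatase, ran the other way at 11.4 ± 1.34 CPM in DIZE libraries and 16.9 ± 2.27 CPM in vehicle libraries (log2 fold change -0.57 ± 0.15, edgeR adjusted p = 0.109).

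**Figure D4:**
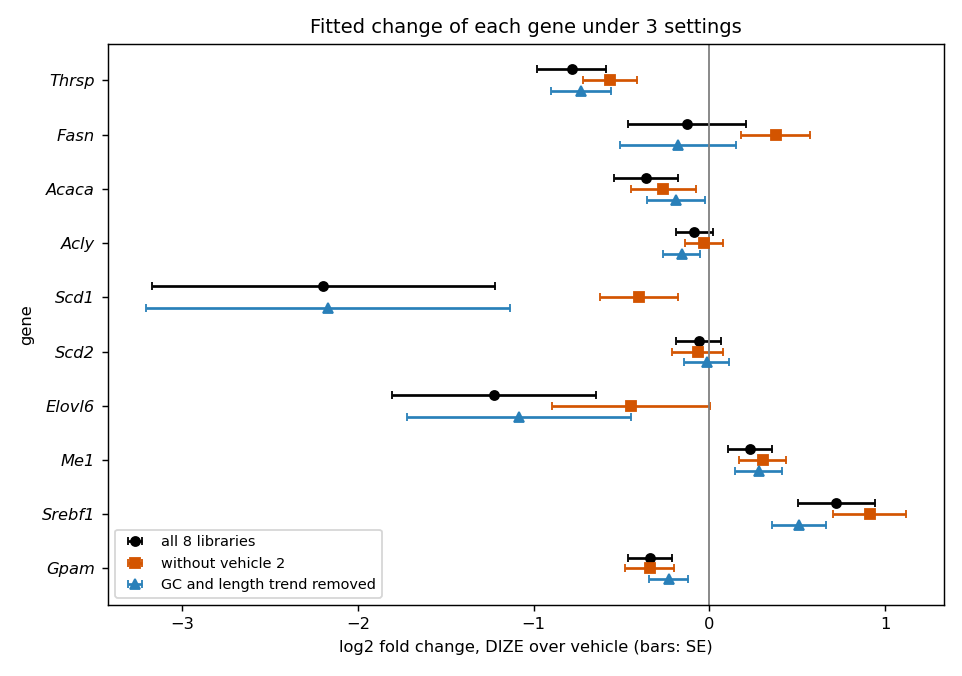
Log2 fold change of each lipogenesis gene, DIZE over vehicle, with its SE, with all 8 libraries, without vehicle 2, and with the GC and length trend removed. Scd1 moves from -2.20 with vehicle 2 to -0.40 without it, Fasn changes sign to 0.38, and Thrsp, Gpam and Srebf1 keep theirs.

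Vehicle 2, the library with liver transcripts, was the highest of the 8 for 6 of the 10 lipogenesis genes, where 7.32% of tested genes peak in that library. It was over 2 times every other library for Scd1 and Elovl6, as it was for 0.374% of tested genes. These enzymes are abundant in liver as well as in fat, and the part of liver RNA in the vehicle 2 values was not tested. Car3, which is abundant in fat and liver, is among the adipocyte markers. It had 13, 0, 3 and 16 reads in DIZE libraries, against 123, 1036, 2 and 33 reads in vehicle libraries.

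Sterol synthesis genes, most of which are SREBP-2 targets, were divided evenly, with 10 of 19 tested genes fitted higher and 9 lower, 0 at an unadjusted p under 0.05 against 19.4% of tested genes, and a median of 0.03. Among 13 tested genes of thyroid hormone signalling and response, 9 were fitted higher and 4 lower, with 0 passing and a median of 0.27. Thra, the main thyroid hormone receptor of heart, averaged 155 ± 17.1 CPM in DIZE libraries and 99.2 ± 13.1 CPM in vehicle libraries, without overlap, for a log2 fold change of 0.65 ± 0.13 (edgeR adjusted p = 0.0815). With the GC and length trend removed it was 0.40 (edgeR adjusted p = 0.0985). Ucp3, a mitochondrial carrier raised by thyroid hormone, averaged 286 ± 60.4 CPM in DIZE libraries and 178 ± 48.4 CPM in vehicle libraries (log2 fold change 0.69, edgeR adjusted p = 0.138). Dio2, which makes the active hormone, averaged 1.89 ± 0.700 CPM in DIZE libraries and 3.57 ± 2.09 CPM in vehicle libraries (edgeR adjusted p = 0.228). Vehicle 1 held 6.67 CPM of Dio2, and the log2 fold change was -0.95 with that library and -0.44 without it. Hcn2, a pacemaker channel raised by thyroid hormone, averaged 20.3 ± 1.495 CPM in DIZE libraries and 11.7 ± 6.06 CPM in vehicle libraries (edgeR adjusted p = 0.287). Vehicle 1 held 2.77 CPM of Hcn2, and the log2 fold change was 0.80 with that library and 0.46 without it. Of 7 tested LXR targets, 4 were fitted higher and 3 lower with 0 passing. The cholesterol exporter Abca1 averaged 38.7 ± 7.30 CPM in DIZE libraries and 59.8 ± 5.43 CPM in vehicle libraries (log2 fold change -0.63 ± 0.14, edgeR adjusted p = 0.0888). Lpcat3, a phospholipid acyltransferase, averaged 99.1 ± 6.59 CPM in DIZE libraries and 72.1 ± 14.8 CPM in vehicle libraries (log2 fold change 0.46, edgeR adjusted p = 0.145).

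**Figure D5:**
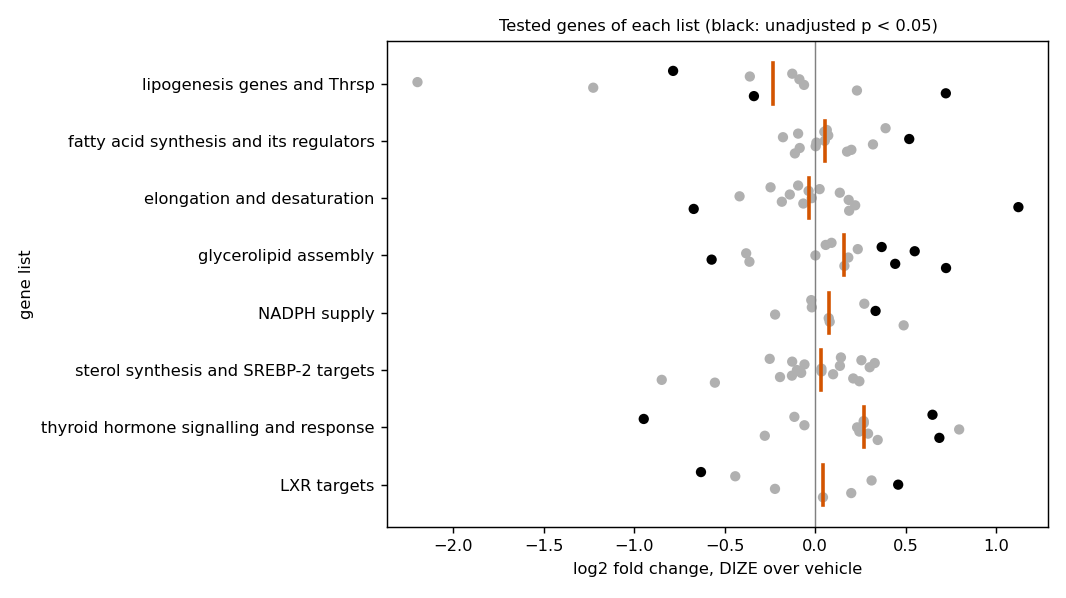
Log2 fold change, DIZE over vehicle, of every tested gene among the 10 lipogenesis genes and in each list of lipid and hormone pathways; black points have an unadjusted p under 0.05 and the orange bar is the median. The median is -0.23 for the 10 lipogenesis genes, and those of the other lists run from -0.04 for elongation and desaturation to 0.27 for thyroid hormone signalling and response.

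Across the 8 libraries, 0 of the 45 pairs of lipogenesis genes had an adjusted p under 0.05 for Pearson's r or Spearman's rho of log2(CPM + 0.5). Both groups are pooled in these values, so a difference between the groups can enter r and rho. Me1 and Srebf1 had r = 0.89 (exact permutation p = 0.00518, adjusted p = 0.121) and rho = 0.81 (exact permutation p = 0.0218, adjusted p = 0.446). Without DIZE 3 and vehicle 1, the libraries farthest from the median, r was 0.57. Scd1 and Elovl6 had r = 0.86 (exact permutation p = 0.0168, adjusted p = 0.152) and rho = 0.69 (exact permutation p = 0.0694, adjusted p = 0.446). Without vehicle 1 and vehicle 2, r was 0.02, so that relation rests on those libraries. Thrsp had r = 0.84 with Scd1 (exact permutation p = 0.00645, adjusted p = 0.121), and 0.65 without DIZE 2 and vehicle 2. Its r with Elovl6 was 0.86 (exact permutation p = 0.00809, adjusted p = 0.121), and 0.36 without DIZE 2 and vehicle 2. Acaca and Gpam had r = 0.80 (exact permutation p = 0.0142, adjusted p = 0.152), and 0.20 without vehicle 2 and vehicle 3.

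The genes most like Thrsp across the 8 libraries, among 13639 tested genes with a mean of at least 1 CPM, were Nrn1 (r = 0.96), A230056P14Rik (r = 0.94), Mvb12a (r = 0.94), Gm5561 (r = 0.94) and Fbxw9 (r = 0.93). Nrn1, which encodes neuritin, averaged 4.37 ± 1.04 CPM in DIZE libraries and 8.91 ± 2.13 CPM in vehicle libraries. The genes most like Fasn were Zfp653 (r = 0.97), Reep6 (r = 0.97), Tkfc (r = 0.93), Hspa2 (r = 0.92) and Fxyd1 (r = 0.92). Each of these 10 genes, like Thrsp and Fasn themselves, was highest in vehicle 2. They were picked by r over the same libraries, so that shared peak follows largely from the choice. Nrn1 reached 11.8 CPM there, against at most 9.24 CPM in any other library, and Zfp653 reached 12.2 CPM, against at most 8.06 CPM. Reep6 and Tkfc reached 38.0 and 27.7 CPM there, against at most 10.4 and 11.1 CPM.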

How the data were processed

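RNA from hearts of db/db mice was measured by stranded poly(A) RNA sequencing in 4 DIZE and 4 vehicle libraries. Per the submitters' processing notes, STAR 2.7.3, HTSeq 0.6.1p1, edgeR, R 4.1 and build mm10 were used, while the annotation release and strand setting are not stated there. The authors deposited raw counts of reads per Ensembl gene. Symbols matched for 55141 of 55487 genes and 0 columns came from other samples.

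CPM, log2 fold changes and TPM were computed here from the deposited counts. CPM use TMM-scaled library sizes, and TPM use exon lengths of GENCODE M21 on GRCm38, the assembly of mm10. All genes kept by filterByExpr (minimum count 10, minimum total 15) were fitted together with edgeR 4.0.16 in R 4.3.3 (robust quasi-likelihood, two-sided, no covariate), and p-values were adjusted by Benjamini-Hochberg over all of them at 0.05. An SE is the absolute log2 fold change over the square root of F. Alternatives were DESeq2 1.42.0, limma-voom (limma 3.58.1), other size factors and filters, blocks, subsets by title form, removal of trends on GC and length (splines with 4 degrees of freedom), and leaving out each library. Shares were compared by an exact permutation test over 70 splits. Promoters came from RefSeq, GRCm38.p6. Scripts were tested on simulated data. Libraries differed by more than sampling noise, the most alike pair giving 5.57 per degree of freedom.

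The members and lists were chosen with earlier results of these data known. The genes named are the 10 members and Acacb, Scd3, Scd4, Elovl5, Mlxipl, Mid1ip1, Srebf2 and Insig1, up to 4 genes per list with the smallest unadjusted p, the first markers of each marker list, and the 5 genes most like Thrsp and Fasn. Rai1 was named for its overlap. Car3, an adipocyte marker that the rule above also names, was described after its values were seen.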

Additional observations from a re-analysis of the deposited data

Results flagged for a closer look

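Within groups of 4 libraries, 94 sets of values were searched for a library apart from the rest of its group, and 14 were found. The limit used flags about 1 in 20 sets of normally distributed values. Many of the genes were named by their values in these libraries, so the 14 cannot be set against that share. The rule weighs the gap against the range of the 4 values, so a small gap can be flagged in a tight group. The lipogenesis gene among the 14 is Scd1, at 283 CPM in vehicle 2. Vehicle 2 also stood far above the other vehicle libraries for Alb at 1348 CPM, Apoa1 at 77.5 CPM, Car3 at 133 CPM, Reep6 at 38.0 CPM and Tkfc at 27.7 CPM. Reep6 and Tkfc were named for their likeness to Fasn, which itself peaks in vehicle 2. Vehicle 1 stood far under its group for Acacb at 217 CPM and Hcn2 at 2.77 CPM, and far above it for Dio2 at 6.67 CPM. DIZE 2 stood far above its group for Scd4 at 153 CPM. It was flagged above the group for Hcn2 at 22.5 CPM, where the other DIZE libraries held 19.4 to 19.6 CPM. It was flagged under the group for the Scd1 share at 43.1%, where the other DIZE libraries held 46.8 to 47.2%. The Wilson interval of that share in DIZE 2, 37.9 to 48.5%, covers the values of the other DIZE libraries. DIZE 4 was flagged under its group for Lpcat3 at 89.2 CPM, where the other DIZE libraries held 101 to 103 CPM. It was flagged above the group for Adipoq at 0.585 CPM, which stands for 6 reads.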

How the results depend on the processing

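The number of genes called varied widely, and the number of lipogenesis genes among them little. The 5 genes called by edgeR became 0 with library totals only, 0 with the number in the titles as a replicate block, 9 with title form as a block, 41 with the GC and length trend removed, 386 with no filter on low counts and 606 with DESeq2. Leaving out each library in turn gave 0 to 240 genes, with 9 without vehicle 1, 240 without vehicle 2, 1 without vehicle 3 and 0 without vehicle 4 or without any one of the DIZE libraries. Title forms taken alone gave 0 genes with db and 1349 without, and leaving out vehicle 1 and vehicle 2, chosen after seeing the data, gave 65. Of the 10 lipogenesis genes 0 passed in the fit reported, 1 with no filter (Thrsp), 2 with DESeq2 (Thrsp and Srebf1, where Scd1 got no adjusted p) and 1 in the titles without db (Srebf1). Libraries of different groups that share a title number had correlations of -0.14 to 0.02 over 5 pairs in their deviations from group means. Pairs with different numbers ran from -0.21 to 0.14, so these values cannot tell whether a number marks a shared source. Under the replicate block Thrsp had a log2 fold change of -0.89 and Srebf1 0.71.

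Signs turned in these cases, for which the cause was not tested beyond the libraries left out. Fasn was at 0.0684 with limma-voom, 0.24 in the titles without db, 0.16 without vehicle 1 and vehicle 2, and -0.36 to 0.38 on leaving out each library. In the titles without db, Scd1 was at 0.0418, Scd2 at 0.0058, Elovl6 at 0.31, Fabp4 at 0.0423 and the Scd1 share at 0.639 percentage points, and Scd2 was at 0.0076 under the replicate block. Insig1 was at -0.012 with library totals, -0.0167 with limma-voom, -0.24 under the replicate block, -0.0518 with title form as a block, -0.67 in the titles with db and -0.21 to 0.24 on leaving out each library. Mlxipl was at -0.012 in the titles without db, -0.12 without the GC and length trend, -0.0133 without vehicle 1 and vehicle 2 and -0.17 to 0.29 on leaving out each library. Mid1ip1 was at 0.028 under the replicate block, 0.23 in the titles with db and -0.29 to 0.0599 on leaving out each library. Thrsp, Gpam, Acaca, Acly, Me1 and Srebf1 kept their sign in all 20 alternatives, Thrsp from -1.15 to -0.37 and Srebf1 from 0.51 to 0.91. For Thrsp and Gpam, whose groups do not overlap, leaving out libraries could hardly have turned the sign. The Scd1 share difference ran from -20.1 to -4.74 percentage points on leaving out each library. Low depth limits Elovl6 and Acaca most, whose lowest libraries held 5 and 74 reads.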

Other observations

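Other marker lists were summed in each library, and these sums do not measure tissue content, since single genes can dominate them. Fabp4, which makes up most of the adipocyte sum, also counts in the endothelial sum. Summed atrial markers were at 13.6 to 131 CPM in DIZE libraries and 35.7 to 824 CPM in vehicle libraries, and Myl7, an atrial myosin light chain, had 11, 6, 152 and 432 reads in DIZE libraries, against 2714, 170, 5 and 1099 reads in vehicle libraries. Erythroid markers were at 8.55 to 69.4 CPM in DIZE libraries and 90.0 to 189 CPM in vehicle libraries. Macrophage markers were at 238 to 259 CPM in DIZE libraries and 248.8 to 378 CPM in vehicle libraries, fibroblast markers at 936 to 1238 CPM in DIZE libraries and 1062 to 1735 CPM in vehicle libraries, and endothelial markers at 1165 to 1680 CPM in DIZE libraries and 1257 to 1942 CPM in vehicle libraries. Smooth muscle markers were at 149 to 187 CPM in DIZE libraries and 173 to 210 CPM in vehicle libraries, Schwann cell markers at 16.5 to 25.6 CPM in DIZE libraries and 16.2 to 20.01 CPM in vehicle libraries, and skeletal muscle markers at 889 to 1584 CPM in DIZE libraries and 941 to 1436 CPM in vehicle libraries. Most of the skeletal muscle sum was Ckm, at 797 to 981 CPM in DIZE libraries and 668 to 1010 CPM in vehicle libraries. Tnnt3 of that list had 3 to 15 reads in DIZE libraries and 6 to 13 reads in vehicle libraries. Brown fat markers were at 489 to 532 CPM in DIZE libraries and 523 to 642 CPM in vehicle libraries, with Ucp1, their defining gene, at 0 reads in all 8 libraries. Cox7a1 of the brown fat list was at 215.3 to 266.5 CPM in DIZE libraries and 251.3 to 319 CPM in vehicle libraries. The part of these markers in the lipogenesis results was not tested.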
